A study of Mus musculus with 30 samples.

Results

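Loss of interferon regulatory factor 2 (IRF2) was examined in resting cells of DC3.2, a dendritic cell line from the mouse, by comparing 2 IRF2KO libraries kept in media with 2 WT libraries kept in media. These are the 4 libraries of the series' 30 whose labels give those genotypes, media alone and a harvest after 2 h. In the sample titles the group taken here as WT reads nosg and IRF2KO reads IRF2sg. No label says whether the line is 1 clone or a pool, and none names a control for the targeting. Separate cultures for the 2 replicates are not stated either. The p-values reflect only the spread between libraries within a group, estimated over the 12 replicated groups of the series, and this spread may be technical. The other settings used for comparison each have their own pair of groups and 2 libraries a group: IRF2KO and WT with IFNα at 5000 U/mL for 2 h, IRF2KO and WT with IFNγ at 2 ng/mL for 2 h, and DKO (IRF1 and IRF2 both targeted) and IRF1KO in media. IRF1KO was also given each interferon at the same dose and time. A further 3 single libraries, WT and IRF2KO at 0 h and WT with IFNα at 5000 U/mL for 2 h, have no replicate. All values are TPM, the share of a library's transcripts that a gene takes after correction for transcript length, and the read depth behind them is unknown.

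IRF2 belongs to a family of transcription factors that bind DNA elements built from repeats of GAAA. It is long known as a repressor that occupies sites used by IRF1, the activator induced by interferon, and it also acts as an activator of some promoters. Dendritic cells hold a low level of many interferon-inducible transcripts at rest, among them GTPases that attack vacuoles holding pathogens, sensors of viral RNA, and the proteasome subunits, transporters and peptidases that feed peptides to MHC class I.

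The question of the comparison is which transcripts IRF2 keeps low or high in cells that have not been given interferon. Of 11842 genes tested, 33 were called higher in IRF2KO (0.279%) and 66 lower (0.557%), in all 99 (0.836%) at an adjusted p under 0.05 with limma. At an unadjusted p under 0.05 there were 869. With the replicate number as a block, 74 were called higher and 139 lower. In all 99 called genes both IRF2KO libraries lay on the same side of both WT libraries, as did 12.8% of all genes tested on the higher side and 25.2% on the lower side. The calls were made from these same libraries, so this separation is no separate support for them. The called genes changed by 0.46 to 6.14 (log2) on the higher side, with a median of 1.21, and by −0.47 to −3.18 on the lower side, with a median of −1.16. The median over all genes tested was −0.062. Among the 66 lower genes, 20 had less than 20% of the WT level and 12 had less than 10%. Of the 99 calls, 33 were kept whichever 1 of the 4 libraries was left out, and 35 were lost in each of those 4 fits, whose counts of calls were 45 without IRF2KO replicate 1, 57 without IRF2KO replicate 2, 47 without WT replicate 1 and 40 without WT replicate 2.

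**Figure D1:**
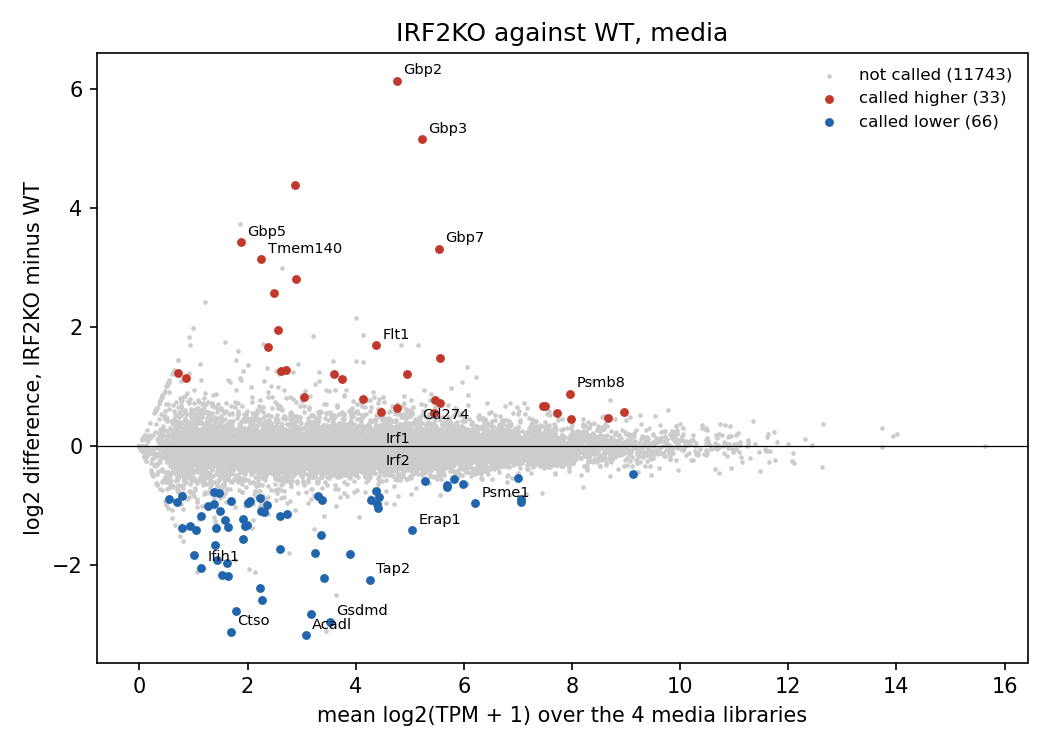
Log2 difference between IRF2KO and WT in media (vertical axis, TPM + 1 scale, means of 2 libraries a side) against the mean log2(TPM + 1) of the 4 libraries (horizontal axis), 1 point per gene tested. Red points are the 33 genes called higher and blue points the 66 called lower. The highest points are Gbp2 and Gbp3, at 6.14 and 5.16, and Acadl, Ctso and Gsdmd lie near −3.

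The targeted gene itself was not lower beyond the test's threshold. Irf2 (chromosome 8, 46739745 to 46847458) had 23.43 and 25.16 TPM in WT and 18.19 and 17.35 TPM in IRF2KO, a log2 difference of −0.43 ± 0.14 (SE, adjusted p = 0.357). The groups did not overlap. Since a frameshift can leave mRNA in place, the Irf2 level is no check of the line. Not all dendritic cell markers were found: Flt3, the receptor for a growth factor of dendritic cells, was at 0 in all 4 libraries, and 6 of 12 such markers were above 1 TPM in each of the 4. Of 13 macrophage and monocyte markers 10 were above 1 TPM in each library, with sums of 3730 and 3487 TPM in WT and 3094 and 3181 TPM in IRF2KO. The dendritic cell marker sums were 1222 and 1065 TPM in WT and 1043 and 922 TPM in IRF2KO, and the part of these differences in the results was not tested. Lymphocyte markers summed to at most 0.38 TPM and fibroblast and stromal markers to at most 0.36 TPM. In these libraries fewer cells with a transcript and less transcript per cell cannot be told apart. The most abundant entry, the clone-named AK155692, took 3.82% to 6.83% of each library.

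Promoter sequence is shown first, because the called genes were richer than the rest in an IRF-type sequence. Stretches are printed only for called genes whose promoter holds it. They are the 6 higher and 6 lower with the largest change among genes named for their change or fixed by name. The motif searched was GAAA, any 2 bases and GAAA again, on both strands and with overlapping matches counted, in the window from 250 bases before to 50 bases after each RefSeq start (GRCm38). Of the 33 higher genes 27 had a promoter in the RefSeq table, and 10 of these (37.0%) held the motif. Among the 66 lower genes 48 had a promoter and 10 (20.8%) held it, against 3.94% of 8476 genes tested that had one. A gene with several promoters counts once. The 30-base stretches below run 5′ to 3′ along each gene's strand, and the capitals mark the motif, which reads TTTC, 2 bases and TTTC where it lies on the opposite strand. The 6 higher genes are these.
Gbp2: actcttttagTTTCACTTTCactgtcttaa
Gbp3: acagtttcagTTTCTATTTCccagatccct
Gbp5: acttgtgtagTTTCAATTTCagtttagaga
Gbp7: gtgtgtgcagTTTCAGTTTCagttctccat
Tmem140: gttaaaaaacGAAAGTGAAAtcagctgaga
Irgm2: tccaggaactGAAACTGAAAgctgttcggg
The 6 lower genes follow.
Ctso: gcggagccaaGAAACCGAAAgagaaagcgg
Ifih1: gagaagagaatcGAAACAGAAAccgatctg
Erap1: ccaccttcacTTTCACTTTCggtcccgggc
Ddx58: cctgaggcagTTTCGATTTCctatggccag
Tdrd7: gaactttgtgGAAAGAGAAAtaaatccaca
Psme1: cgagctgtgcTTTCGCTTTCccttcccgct
On GRCm38 these stretches lie at chr3:142620594-142620623 (Gbp2), chr3:142559995-142560024 (Gbp3), chr3:142496759-142496788 (Gbp5), chr3:142530273-142530302 (Gbp7), chr6:34863073-34863102 (Tmem140) and chr11:58214903-58214932 (Irgm2), all on the plus strand. The stretches of the lower genes lie at chr3:81932606-81932635 (Ctso, plus strand), chr2:62646206-62646235 (Ifih1, minus strand), chr13:74639839-74639868 (Erap1, plus strand), chr4:40239804-40239833 (Ddx58, minus strand), chr4:45972096-45972125 (Tdrd7, plus strand) and chr14:55578493-55578522 (Psme1, plus strand).

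The place of the motif differed between the lists. Positions count the start base itself as the first base, and bases before it are negative. On this count the first base of the motif lay between −165 and −13 in the 10 higher genes, so each match ended before the start. In 8 of the 10 lower genes a match reached the start base or lay after it, with the first base at 16 in Ctso, 33 in Ifih1, 3 in Ddx58 and −4 in Erap1, while those of Tdrd7 and Slfn9 lay upstream at −191 and −45. Searching the 250 bases before the start alone left 10 of 27 higher genes (37.0%) and 3 of 48 lower genes (6.25%), against 3.36% of all. The longer form that ends in CT after the second GAAA, the core of the element bound by interferon-induced STAT and IRF complexes, was in 18.5% of higher genes, 8.33% of lower genes and 0.46% of all. The sequence TTC, any 3 bases and GAA, known from interferon γ-responsive promoters, was in 18.5% of higher and 10.4% of lower genes, against 8.52% of all. No test was made of these shares, and a match is a description of the sequence, not a site shown to be bound. Among the higher genes with a match, Gbp2, Gbp3, Gbp5 and Gbp7 belong to the same family, as do Igtp, Irgm1 and Irgm2. The 10 promoters are therefore not all unrelated. Promoters of Gbp4, Gbp8, Gbp9, Gsdmd and Tap2 were not analysed here. Those of Acadl, Arsb, Nmi, Flt1, Cst7, Psmb8, Ifi47 and Tlr3 were searched and held no match to the IRF-type motif.

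**Figure D2:**
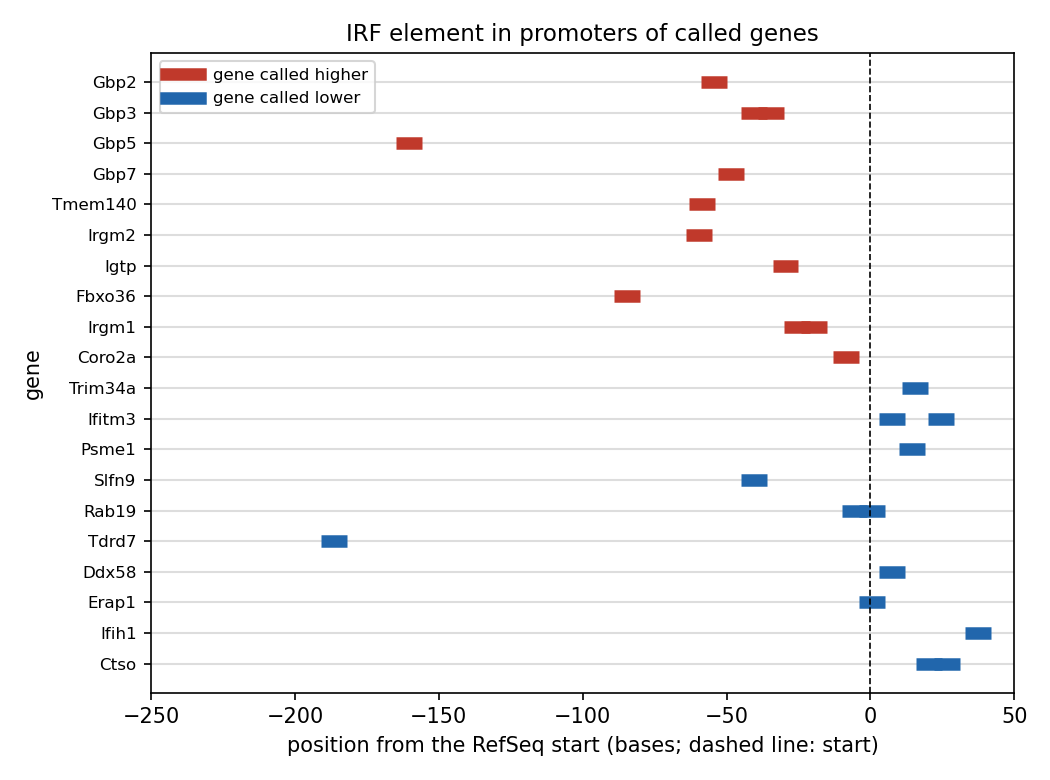
Position of each match to the IRF-type motif (horizontal axis, bases from the RefSeq start, dashed line at the start) in the promoters of the called genes that hold one (vertical axis), ordered by log2 difference. All matches of the 10 higher genes (red) end before the start, and in 8 of 10 lower genes (blue) at least 1 match reaches or follows it.

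The guanylate-binding proteins (GBPs) rose most. These large GTPases coat bacteria and the vacuoles of pathogens and are textbook targets of interferon γ. Of 10 tested members 7 were called higher and none lower, with a median of 2.94. For this list and those below, 0.279% of all genes tested were called higher and 0.557% lower. The other 3, Gbp6, Gbp10 and Gbp11, were under 1 TPM in each of the 4 media libraries compared. Gbp2 (chromosome 3, 142620663 to 142638008) had 4.48 and 0.92 TPM in WT and 313.26 and 164.60 TPM in IRF2KO. Both IRF2KO libraries lay far above both WT libraries, by 6.14 ± 0.41 (log2, SE, adjusted p = 1.79e-07). Its neighbour Gbp3 had 5.34 and 5.19 TPM in WT and 225.79 and 220.25 TPM in IRF2KO, a rise of 5.16 ± 0.25 (adjusted p = 9.14e-09). Gbp3 was at nearly the same level in the 2 libraries of each group, whereas Gbp2 differed between them. Gbp7 already had 13.58 and 13.85 TPM in WT and reached 139.26 and 151.80 TPM, a rise of 3.31 ± 0.16.

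Gbp5, which promotes inflammasome assembly, had 0.12 TPM in both WT libraries and 13.60 and 8.86 TPM in IRF2KO, a rise of 3.42 ± 0.22. It moved from near 0 to a clear level. On chromosome 5, Gbp4 went from 0.70 and 0.52 TPM to 29.23 and 36.66 TPM (4.39 ± 0.28), with no overlap. Gbp9 and Gbp8 rose by 2.58 ± 0.32 and 1.95 ± 0.32, and the call of Gbp8 was lost without IRF2KO media replicate 2 or without WT media replicate 2, with values of 1.78 to 2.11 over the 4 fits. The genes thus came from both GBP clusters, all 4 tested on chromosome 3 and 3 of 6 on chromosome 5. Members of this family resemble each other in sequence, and how reads shared between them were divided is not given in the sources used here.

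The immunity-related GTPases, smaller GTPases that act on the same vacuoles, rose less. Of 10 tested members 4 were called higher and none lower, with a median of 0.77. Ifi47 had 2.96 and 2.93 TPM in WT and 8.25 and 8.71 TPM in IRF2KO, a rise of 1.26 ± 0.17 (adjusted p = 0.000688). The replicates of each group lay close together and the groups far apart. Igtp went from 7.92 and 6.13 to 16.45 and 18.59 TPM (1.21 ± 0.20), and Irgm1, a regulator that guards self membranes from the other members, from 13.03 and 11.75 to 22.86 and 21.39 TPM (0.79 ± 0.13). Irgm2 had 3.03 and 3.45 TPM in WT and 8.47 and 9.97 TPM in IRF2KO (1.27 ± 0.27). No library of these genes overlapped the other group, but the calls are less firm: that of Irgm2 was lost in each fit that left out 1 of the 4 libraries, Igtp's without IRF2KO replicate 2 or WT replicate 2, and Irgm1's without IRF2KO replicate 1 or WT replicate 2. Gm4951, another member, had 12.57 and 14.65 TPM in WT and 27.84 and 24.86 TPM in IRF2KO and was not called.

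**Figure D3:**
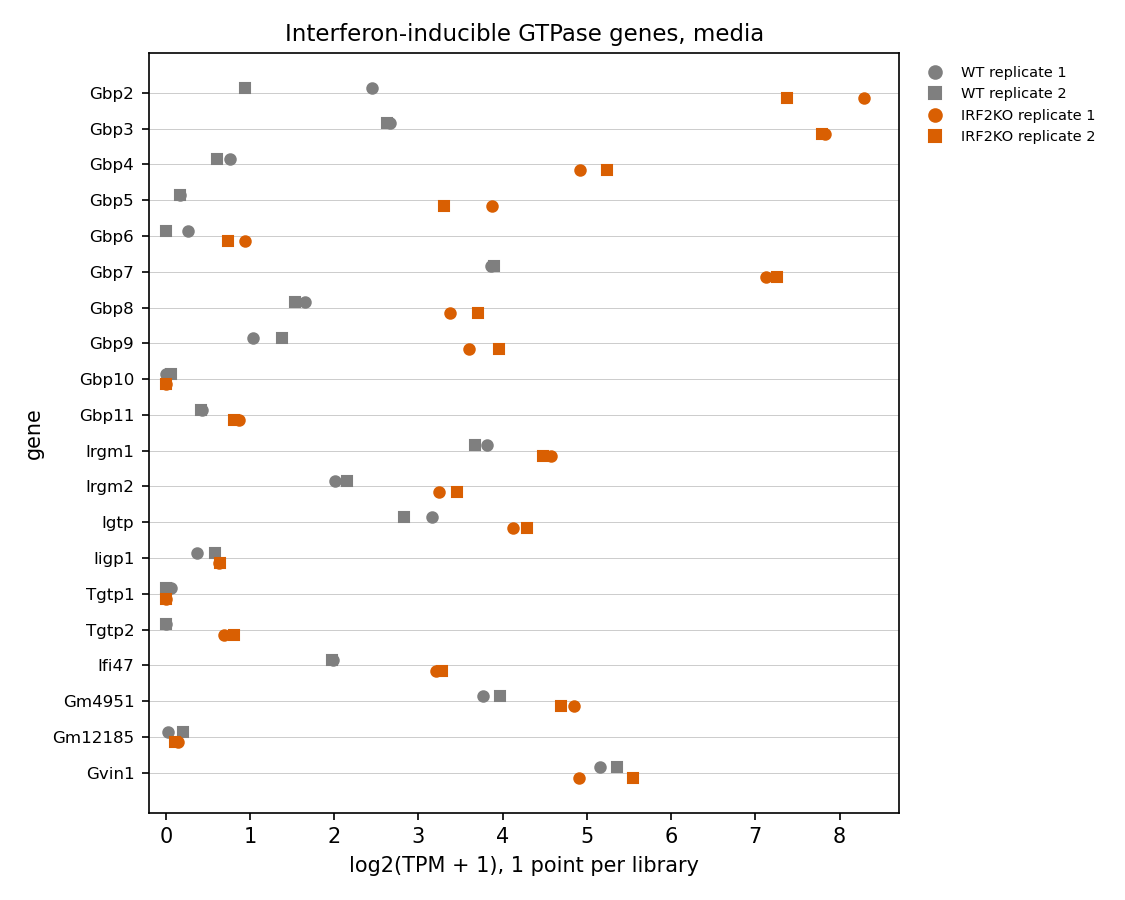
Level of each tested GTPase gene (vertical axis) in the 4 media libraries, as log2(TPM + 1) on the horizontal axis, with circles for replicate 1, squares for replicate 2, grey for WT and orange for IRF2KO. Gbp2, Gbp3, Gbp4, Gbp5 and Gbp7 show gaps of 3.31 or more between the groups, and the gaps of Irgm1, Irgm2, Igtp and Ifi47 are 0.79 to 1.27.

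Genes outside the GTPases also rose. Tmem140, a transmembrane protein, had 0.37 and 0.89 TPM in WT and 13.22 and 13.06 TPM in IRF2KO (3.14 ± 0.37, adjusted p = 0.000179). Flt1, a receptor for vascular endothelial growth factor, went from 9.54 and 11.74 TPM to 30.79 and 43.42 TPM (1.70 ± 0.20). Both groups were well apart for these genes. Cst7, a cystatin that inhibits lysosomal cysteine proteases, had 30.51 and 24.55 TPM in WT and 86.61 and 69.84 TPM in IRF2KO (1.47 ± 0.23), and its call was lost without IRF2KO replicate 1 or WT replicate 2. Trafd1, a restraint on innate signalling, went from 22.43 and 16.64 to 53.30 and 39.52 TPM (1.21 ± 0.19), with the same dependence on those libraries. Fbxo36, Gm19705 and Tspan13 rose by 0.81, 1.66 and 1.12, and each was lost whichever of the 4 libraries was left out. An entry named mmu-mir-155* was among the higher calls, and its value is not given because the entry could not be matched to a miRNA arm.

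The MHC class I pathway moved in both directions. Of 21 tested members 1 was called higher and 3 lower (5 lower with the replicate block), with a median of −0.06. The lower genes were Tap2, a subunit of the peptide transporter, Erap1, the peptidase that trims peptides in the endoplasmic reticulum, and Psme1, a subunit of the proteasome activator PA28. Tap2 had 43.90 and 37.58 TPM in WT and 11.63 and 5.09 TPM in IRF2KO, a fall of −2.25 ± 0.29 (adjusted p = 0.000401). Both IRF2KO libraries lay far below both WT libraries. Erap1 had 50.16 and 55.98 TPM in WT and 20.93 and 17.70 TPM in IRF2KO (−1.41 ± 0.23, adjusted p = 0.00532). Psme1 had 119.74 and 86.58 TPM in WT and 56.60 and 47.72 TPM in IRF2KO (−0.96 ± 0.20, adjusted p = 0.0352). The groups were apart for both, but Erap1's call was lost without IRF2KO replicate 2 or WT replicate 2, and Psme1's without IRF2KO replicate 1, IRF2KO replicate 2 or WT replicate 1.

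The 1 member that rose was Psmb8, the β5i catalytic subunit of the immunoproteasome, with 180.45 and 186.70 TPM in WT and 362.71 and 315.04 TPM in IRF2KO (0.88 ± 0.12, adjusted p = 0.000946). It lies between Tap1 and Tap2 in a stretch of 34292 bases on chromosome 17 that also holds Psmb9, and the 4 neighbours did not move together. Tap1, the other transporter subunit, had 15.49 and 15.27 TPM in WT and 14.35 and 15 TPM in IRF2KO, a difference of −0.06 ± 0.17 (0.0041 with median-of-ratios scaling). The groups were nearly level. Psmb9, the β1i subunit, had 31.86 and 32.06 TPM in WT and 18.26 and 13.97 TPM in IRF2KO (−0.96 ± 0.22, adjusted p = 0.0695, called with the replicate block at 0.0352). Psme2, the partner of Psme1, had −0.88 ± 0.25 (adjusted p = 0.218, called with the block at 0.0105). H2-K1, the class I heavy chain, had 236.76 and 236.00 TPM in WT and 197.03 and 181.65 TPM in IRF2KO (−0.32 ± 0.09, adjusted p = 0.252), and H2-D1, B2m, Nlrc5 and Psmb10 had differences between −0.12 and 0.07, none called. None of 12 class II genes, 16 constitutive proteasome genes or 11 checkpoint and costimulatory genes was called, against 0.836% of all genes tested. Of the 16 constitutive proteasome genes 9 had both IRF2KO libraries below both WT libraries and 1 had both above, against 25.2% and 12.8% of all. Cd274, which encodes PD-L1, had a difference of 0.35 ± 0.24 (adjusted p = 0.805). With the block 3 checkpoint and costimulatory genes were called.

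**Figure D4:**
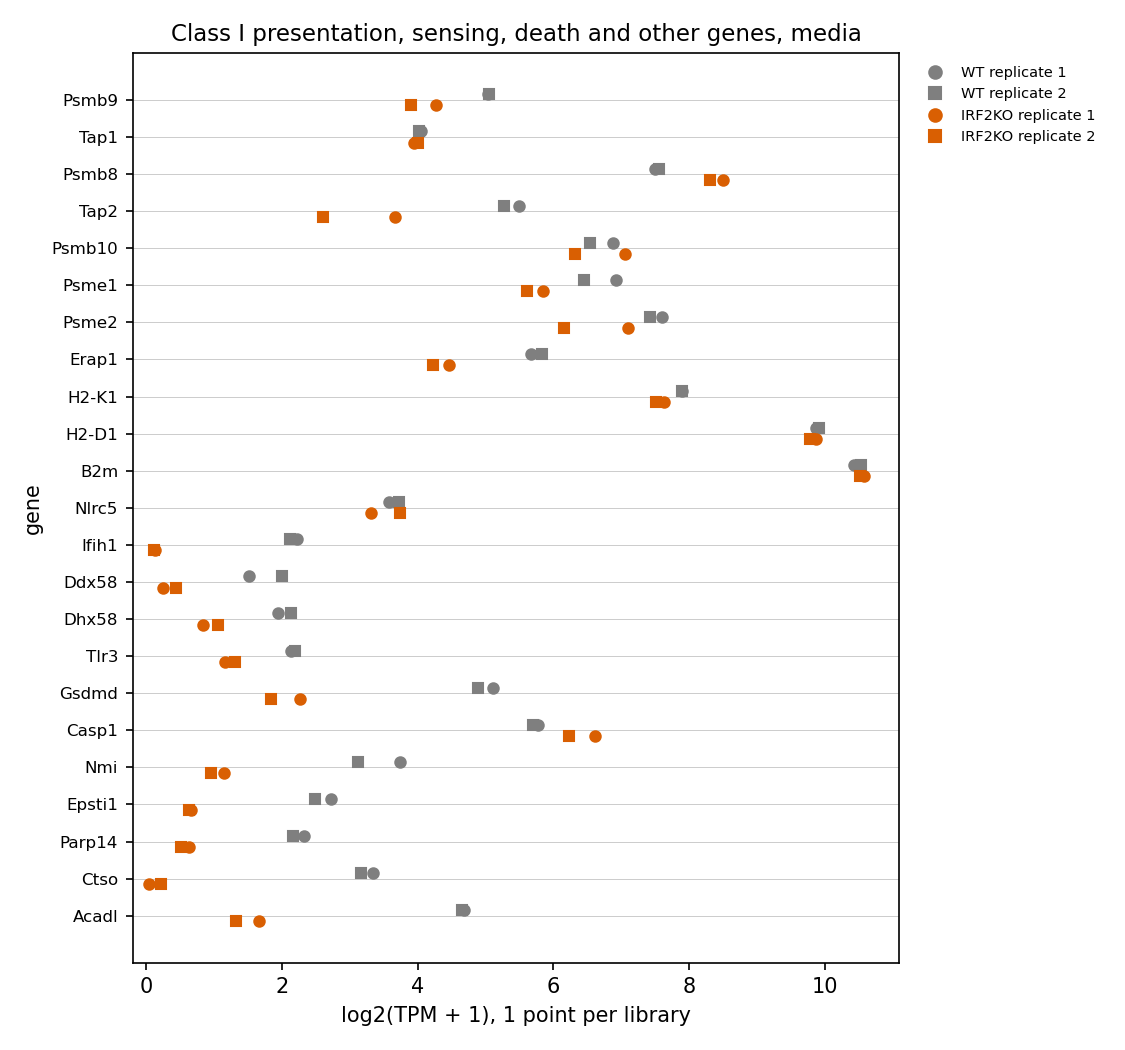
Level of genes of class I presentation, RNA sensing, cell death and other roles (vertical axis) in the 4 media libraries, as log2(TPM + 1) on the horizontal axis, with circles for replicate 1, squares for replicate 2, grey for WT and orange for IRF2KO. Psmb8 lies to the right in IRF2KO while its neighbour Tap2 lies to the left, and Ifih1 and Ctso lie near 0 in IRF2KO.

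Of 28 tested genes of nucleic acid and Toll-like receptor sensing 4 were called lower and none higher, with a median of −0.11. The 4 encode sensors of viral RNA or their relatives. Ifih1, which encodes the long double-stranded RNA sensor MDA5, had 3.66 and 3.32 TPM in WT and 0.09 and 0.08 TPM in IRF2KO, or 2.44% of the WT mean (−2.05 ± 0.15, adjusted p = 6.89e-07). It was nearly undetected in both IRF2KO libraries. Ddx58, which encodes RIG-I, had 1.86 and 2.98 TPM in WT and 0.18 and 0.36 TPM in IRF2KO (−1.41 ± 0.19). Dhx58, the third helicase of this family, fell by 1.10 and Tlr3, the endosomal double-stranded RNA receptor, by 0.93, from 3.39 and 3.57 TPM to 1.24 and 1.47 TPM. The groups did not overlap for these 4 genes. The call of Tlr3 was lost in each of the 4 fits without 1 library, and that of Dhx58 without IRF2KO replicate 1 or WT replicate 2. Mavs, the adaptor downstream of the helicases, had 46.52 and 39.32 TPM in WT and 41.07 and 40.93 TPM in IRF2KO, and Tlr7 and Tlr13 also overlapped between groups.

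Among 25 genes of inflammasomes and cell death 2 were called, both lower, with a median of −0.12 (2 higher and 2 lower with the block). Gsdmd, whose cleaved product forms the pores of pyroptosis, had 33.65 and 28.51 TPM in WT and 3.80 and 2.56 TPM in IRF2KO, or 10.2% of the WT mean (−2.95 ± 0.24, adjusted p = 2.86e-06). Both IRF2KO libraries lay far below both WT libraries for this gene. Casp1, the caspase that cleaves gasdermin D, had 53.63 and 50.92 TPM in WT and 96.41 and 74.03 TPM in IRF2KO (0.68 ± 0.23, adjusted p = 0.402, called higher with the block at 0.034).

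Of 56 antiviral effectors 2 were called higher and 7 lower (4 and 8 with the block), with a median of −0.18. The higher genes were Trafd1 and Cmpk2, a mitochondrial nucleotide kinase, which had 0.04 and 0.09 TPM in WT and 1.99 and 1.08 TPM in IRF2KO (1.23 ± 0.24). The call of Cmpk2 was lost without IRF2KO replicate 1 or either WT library. Nmi, a partner of STAT proteins, had 12.31 and 7.69 TPM in WT and 1.20 and 0.93 TPM in IRF2KO (−2.38 ± 0.20, adjusted p = 2.86e-06). Epsti1 went from 5.61 and 4.62 TPM to 0.58 and 0.55 TPM (−1.96 ± 0.23). Parp14, an ADP-ribosyltransferase, went from 4.0 and 3.46 TPM to 0.55 and 0.42 TPM (−1.67 ± 0.20). These were at 13% of the WT mean or less, with no overlap. Ifi27, Parp12, Slfn9 and Sp110 fell by 1.82, 1.18, 1.05 and 0.91. Ifi27 lost its call without WT replicate 1, Slfn9 without IRF2KO replicate 1 or either WT library, and Parp12 and Sp110 without IRF2KO replicate 2 or either WT library. Mx1, Ifit1, Rtp4 and Ifi44, strongly induced by type I interferon, were under 1 TPM in all 4 libraries.

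On the log2(TPM + 1) scale the largest falls, those of Acadl and Ctso, lay outside the interferon lists. This scale compresses the falls of genes at a low level. As a share of the WT mean the sensor gene Ifih1, at 2.44%, fell further than Acadl but less than Ctso. Acadl, the long-chain acyl-CoA dehydrogenase of mitochondria, had 24.69 and 24.22 TPM in WT and 2.16 and 1.51 TPM in IRF2KO (−3.18 ± 0.26, adjusted p = 2.67e-06). It was the 1 gene called among 18 of mitochondrial fatty acid oxidation, whose median was −0.0044, and its relatives Acadm and Acadvl had 87.4% and 105% of the WT mean. Ctso, a lysosomal cysteine protease, had 9.10 and 7.97 TPM in WT and 0.03 and 0.16 TPM in IRF2KO, or 1.11% of the WT mean (−3.12 ± 0.17, adjusted p = 1.89e-08). It had all but vanished from both IRF2KO libraries. Ctsl was the other cathepsin called among 12, at −0.47 ± 0.10, and its call was lost in each fit without 1 of the 4 libraries.

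Further lower genes had single roles rather than a shared list. Arsb, a lysosomal sulfatase, had 6.49 and 9.90 TPM in WT and 0.26 and 0.37 TPM in IRF2KO (−2.78 ± 0.23). Rcn1, a calcium-binding protein of the secretory pathway, went from 10.45 and 11.14 TPM to 0.69 and 1.27 TPM (−2.59 ± 0.16). Il17rc, a subunit of the interleukin 17 receptor, had 6.62 and 3.95 TPM in WT and 0.55 and 0.20 TPM in IRF2KO (−2.17 ± 0.22). None of these overlapped between the groups. Thbs1, the matrix protein thrombospondin 1, fell by 2.83 ± 0.54 from 22.76 and 23.60 TPM to 1.56 and 3.53 TPM, and its call was lost without IRF2KO replicate 1 or either WT library. The falls of Chil3, a chitinase-like protein, Arg2, the mitochondrial arginase, Tmem63a, Sept6, Mov10 and Tdrd7 ranged from −2.20 to −1.33, and all 6 were called whichever library was left out. Sccpdh fell by 1.35 and lost its call in each of those fits. Itgax, the CD11c integrin that marks dendritic cells, fell by 0.66 ± 0.13, from 66.04 and 62.27 TPM to 35.14 and 45.78 TPM, and its call was lost without IRF2KO replicate 1 or either WT library.

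Among regulators of the interferon system no gene was called. Only 0.836% of all genes tested were called, so an empty list of this size, here or below, does not set its members apart. The 22 interferon receptor and JAK-STAT genes had differences of −0.44 to 1.86, with a median of −0.07, and the 11 IRF family genes −0.95 to 0.17, with a median of −0.05. Irf1 had 19.70 and 22.52 TPM in WT and 17.73 and 23.23 TPM in IRF2KO (−0.05 ± 0.17, and 0.018 with median-of-ratios scaling). The groups overlapped. Irf8 and Irf9 had −0.11 ± 0.14 and 0.16 ± 0.14. Socs1, a feedback inhibitor of JAK kinases, had 3.58 and 17.75 TPM in WT and 28.03 and 37.86 TPM in IRF2KO, higher in both IRF2KO libraries, with the highest difference of its list, but not called. Cell cycle genes (26 tested), immediate early and stress genes (19), cytokines and chemokines (18) and macrophage and monocyte markers (15) had 0 calls with limma, while among 12 dendritic cell markers Itgax was called lower (3 lower with the block). With the replicate block 1 cell cycle gene, 1 macrophage marker and the IRF family gene Irf4 were called lower and 1 cytokine or chemokine gene higher. Irf4 (adjusted p = 0.0523) and Khk (0.0517) lay just outside the threshold, and Wbp1l and Tns4 (0.0486 each) just inside it.

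The same difference was then read in the 3 settings that share no library with the media comparison, although the fit gives them a common estimate of the spread. With IFNα 27 of the 33 higher genes were called higher (0.625% of all genes tested) and 32 of the 66 lower genes were called lower (0.346% of all). All 33 had a positive difference (63.3% of all genes tested), and 64 of 66 a negative one (36.4% of all). With IFNγ 16 of 33 were called higher (0.312% of all) and 42 of 66 lower (0.49% of all). There 32 of 33 had a positive difference (43.3% of all) and 65 of 66 a negative one (56.5% of all). In cells without IRF1 (DKO against IRF1KO) 15 of 33 were called higher (0.211% of all) and 42 of 66 lower (0.456% of all). In that setting 29 of 33 had a positive difference (58.6% of all) and 65 of 66 a negative one (40.9% of all). In each of these 3 settings 10 of the higher and 24 of the lower genes were called in the media direction. The 10 include Gbp3, Gbp4, Gbp5, Gbp7, Flt1, Cst7 and Tmem140, and the 24 include Acadl, Ctso, Gsdmd, Arsb, Rcn1, Nmi, Ifih1, Tlr3 and Parp14.

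For none of the 66 lower genes was a change of the IRF2 difference between media and another setting called. Gsdmd differed by −2.95 in media, −2.78 with IFNα, −2.89 with IFNγ and −3.14 without IRF1. Ctso differed by −3.12, −3.19, −3.04 and −2.94, and Acadl by −3.18, −2.91, −3.12 and −2.80, in the same order. Tap2 had −2.25 in media, −1.19 with IFNα (adjusted p = 0.0717), −1.23 with IFNγ (adjusted p = 0.0656) and −3.43 without IRF1. Erap1 fell from 46.6 TPM in IRF1KO to 3.78 TPM in DKO, a difference of −3.32, against −1.41 in media with IRF1, but the change of the difference itself was not called (−1.90 ± 0.33, adjusted p = 0.139). The difference of Thbs1 was −2.83 in media and 0.05 with IFNγ, where WT and IRF2KO had means of 27.0 and 23.8 TPM. That change was not called either (adjusted p = 1).

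**Figure D5:**
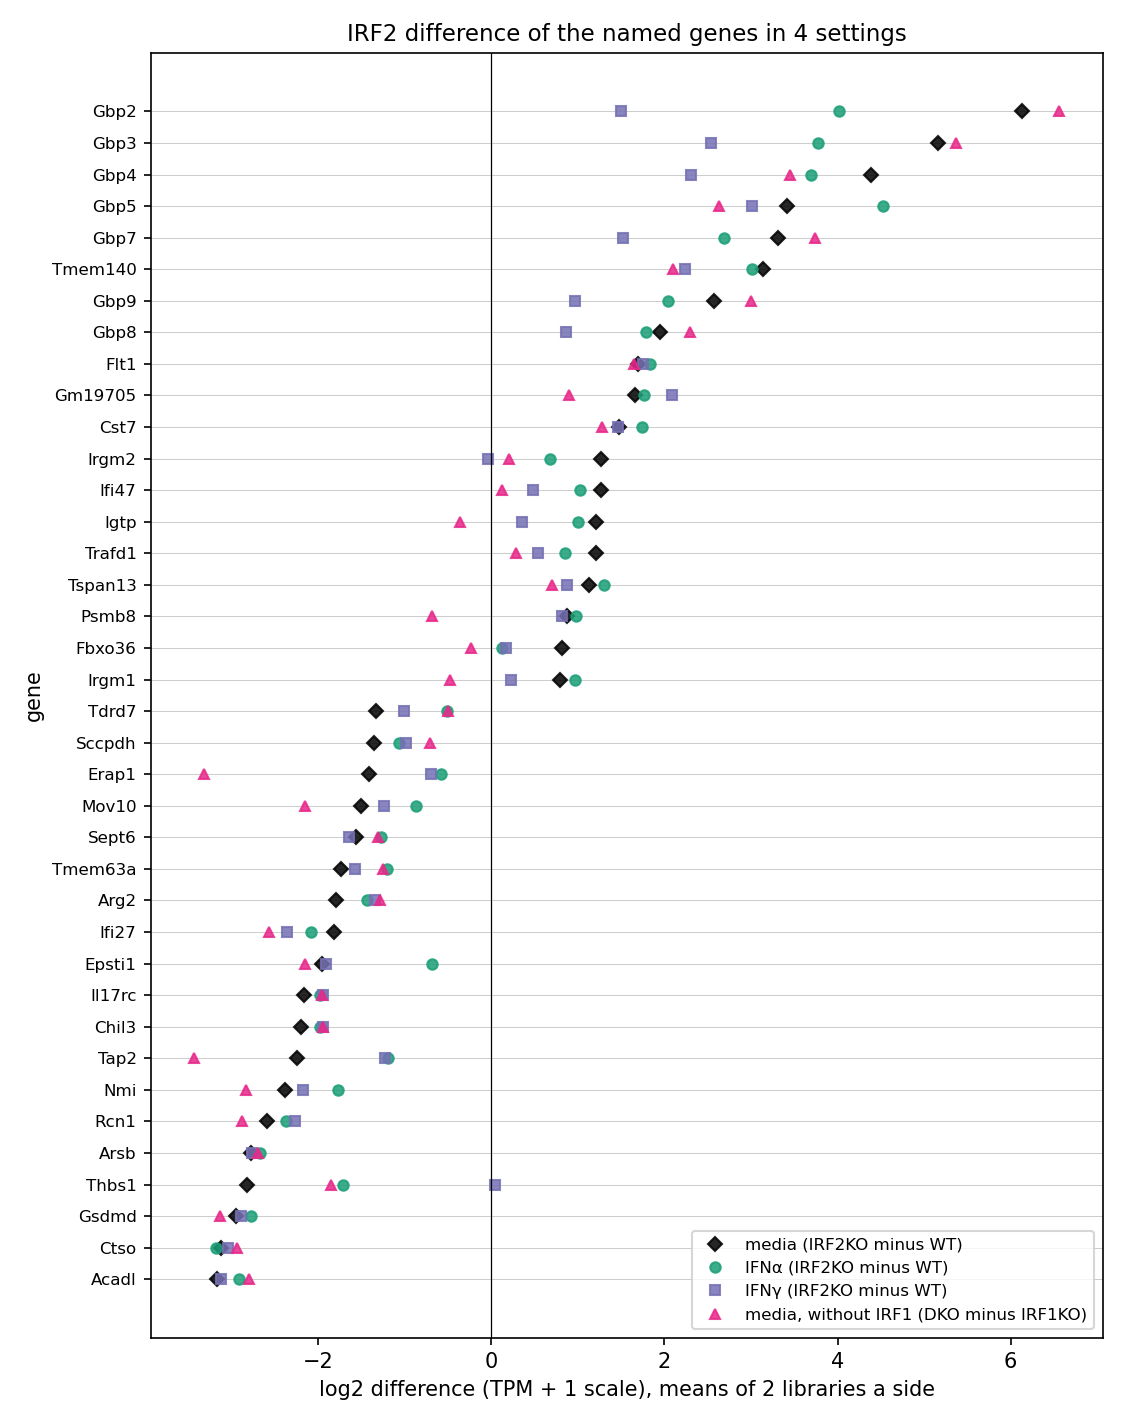
Log2 difference between cells without and with IRF2 (horizontal axis, TPM + 1 scale, means of 2 libraries a side) for called genes named for the size of their change (vertical axis). Colours mark media (black), IFNα (green), IFNγ (purple) and media without IRF1 (pink). Gbp2 ranges from 1.49 with IFNγ to 6.56 without IRF1, Gsdmd, Ctso and Acadl keep close to −3, and Psmb8 lies at 0.88 in media and at −0.69 without IRF1. Of these genes the plot leaves out mmu-mir-155* and 1 further called gene. Called genes named only through a list or fixed by name, such as Ifih1 and Parp14, are not shown.

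Whether the IRF2 difference itself depended on interferon or on IRF1 was tested by direct contrasts. Between IFNγ and media 4 genes were called (0.0338% of those tested): the GBP genes Gbp2, Gbp3 and Gbp7 with a smaller difference under IFNγ, and Rsad2 with a larger one. Gbp2 had 333.77 and 344.15 TPM in WT with IFNγ and 1098.91 and 832.57 TPM in IRF2KO with IFNγ, so the difference was 1.49 there against 6.14 in media (change −4.64 ± 0.57, adjusted p = 0.00434). With IFNγ the WT libraries lay nearer to the IRF2KO libraries but still below them. Gbp3 changed by −2.62 ± 0.35 and Gbp7 by −1.79 ± 0.23, and both calls were lost without IRF2KO IFNγ replicate 2. The call of Gbp2 was lost with the compared groups alone (adjusted p = 0.29). Rsad2 changed by 2.40, and its call was lost there too (0.177) and with a pseudocount of 0.1 (2.64, adjusted p = 1). Resting IRF2KO cells had a mean of 239 TPM of Gbp2, 223 TPM of Gbp3 and 146 TPM of Gbp7, against 339, 58.8 and 97.4 TPM in WT with IFNγ.

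Between IFNα and media 8 genes were called (0.0676%), all with a more positive difference under IFNα. The sign itself changed for Trim21, from −0.43 in media to 0.93 with IFNα, and for Ifit2, from −0.20 to 1.95. They were Rsad2, Cmpk2, Ifit1, Ifit2, Ifit3, Gm14446, I830012O16Rik and Trim21, antiviral genes or their relatives. Rsad2, which encodes viperin, was at 0 in both WT media libraries and at 1.11 and 0.63 TPM in IRF2KO media. With IFNα it had 2.35 and 2.12 TPM in WT and 139.69 and 95.59 TPM in IRF2KO, a change of 4.28 ± 0.31 (adjusted p = 5e-06). Ifit1, whose product binds viral RNA, had at most 0.55 TPM in the 4 media libraries, 23.75 and 25.50 TPM in WT with IFNα and 269.48 and 150.39 TPM in IRF2KO with IFNα (change 2.53 ± 0.32). The groups overlapped at neither gene under IFNα. Of the 8 genes Ifit2 had 4.11 and 4.55 TPM in WT media, and the other genes had at most 1.99 TPM in any of the 4 media libraries, a range in which the scale of log2(TPM + 1) compresses differences. With a pseudocount of 0.1 all 8 changes were still positive, at 0.77 to 2.40, with 2.22 for Ifit2 and 2.18 for Trim21, but none was called (adjusted p = 0.105 to 0.918). With the compared groups alone only Rsad2 was called (adjusted p = 0.0358). The median change over all genes was 0.14, and 0.01 with median-of-ratios scaling. Fits without 1 library gave 4 to 9 calls in all, and the calls of Ifit2, Ifit3 and Trim21 were each lost in 6 or more of the 8 fits, that of I830012O16Rik without WT IFNα replicate 1.

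Between cells without and with IRF1 2 genes were called in media (0.0169%), Psmb8 and Irgm1. Psmb8 had 133.63 and 149.59 TPM in IRF1KO and 93.65 and 81.14 TPM in DKO, so IRF2 loss went with a lower level there and a higher level in cells with IRF1 (change −1.57 ± 0.17, adjusted p = 0.00147). The groups did not overlap in either background. Irgm1 had 13.03 and 11.10 TPM in IRF1KO and 8.93 and 7.80 TPM in DKO (change −1.27 ± 0.18, adjusted p = 0.0171), and this call was lost in 6 of the 8 fits without 1 library and with a pseudocount of 5. With the compared groups alone neither change was called (adjusted p = 0.123 for Psmb8 and 0.786 for Irgm1). The difference of Psmb8 alone was also called in DKO against IRF1KO (−0.69 ± 0.12, adjusted p = 0.00983), as the 1 higher gene called lower there. Ifi47, Igtp and Irgm2 had differences of 0.12, −0.37 and 0.20 without IRF1 and were not called, while Gbp2, Gbp3 and Gbp7 had 6.56, 5.37 and 3.74.

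Whether the called genes answer interferon was read in IRF1KO cells, which share no library with the media comparison but cannot show a response that needs IRF1. With IFNγ 11 of the 33 higher genes rose (1.1% of all genes tested), and these were the 7 GBP and 4 immunity-related GTPase genes, for example Gbp2 by 4.42 and Irgm1 by 4.58. Of the 66 lower genes 1 rose, Parp14, by 1.24. With IFNα 7 of 33 rose (0.811% of all), namely Gbp7, Cmpk2, Trafd1 and the same 4 immunity-related GTPases, and 10 of 66, among them Ddx58 by 2.59, Parp14 by 2.31, Tlr3 by 1.08 and Ifih1 by 0.78. Gsdmd, Ctso, Acadl, Tap2 and Erap1 were called with neither interferon and had differences between −0.26 and 0.24. IRF1KO media libraries are the control of both responses. In WT cells Tap2 had 43.90 and 37.58 TPM in media and 72.51 and 74.89 TPM with IFNγ, higher in both libraries, and Gsdmd had 33.65 and 28.51 TPM in media and 39.28 and 33.42 TPM with IFNγ, where the groups overlapped. These values use the WT media libraries of the main comparison and were not tested. A single WT library with IFNα, set against the single WT library at 0 h, shares no library with it and allows no test. There 13 of 32 higher genes and 11 of 55 lower genes that reached 1 TPM were at least 2-fold higher with IFNα on the log2(TPM + 1) scale (1.66% of 10151 genes), Gbp2 by 4.12, Irgm1 by 4.07, Parp14 by 3.15 and Ddx58 by 2.82. Tap2 was higher by 0.87, Ctso by 0.58, Acadl by 0.37, Gsdmd by 0.25 and Erap1 by 0.10.

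The single libraries at 0 h, 1 a side and quantified against another transcript set, allow no test. Of the 33 higher genes 31 reached 1 TPM in at least 1 of the 2, and 14 of these were at least 2-fold higher in IRF2KO on the log2(TPM + 1) scale (0.712% of 10114 genes). Of the 66 lower genes 53 reached it, and 17 were at least 2-fold lower (0.583% of all). Gbp2 had 0.58 TPM in WT and 144.13 TPM in IRF2KO, and Gbp3 6.45 and 224.22 TPM. Ctso had 6.46 TPM in WT and 0.15 TPM in IRF2KO, Gsdmd 26.95 and 5.03 TPM, and Ifih1 2.56 and 0.07 TPM. Itgax, lower in the media comparison, had 10.59 TPM in WT and 11.43 TPM in IRF2KO at 0 h.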

How the data were processed

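TPM values of 30 libraries were taken as given from the 1 table that the authors deposited. Per the submitters' processing notes, bcl2fastq 2.20, Bowtie 0.12.2 and RSEM were used, with builds mm10 and GRCm38. TPM keeps no read totals, so no count model was used. Values that share a symbol were added up inside each of the table's 2 transcript sets. The 11842 genes that reached 1 TPM in 2 or more of 24 libraries were tested on log2(TPM + 1) with limma 3.58.1 (R 4.3.3), using 12 group means, 2 libraries a group, a trended prior and 12 residual degrees of freedom. Tests are two-sided, with Benjamini-Hochberg adjustment within each comparison, and calls need an adjusted p under 0.05.

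Each replicate number carries 1 code in the titles and was taken to pair the libraries: in 56 of 66 group pairs, same-numbered libraries deviated together (correlation over 0.1; 0.392 for IRF2KO and WT in media). Named genes are the 20 called genes with the largest difference in each direction among those whose higher group averages 5 TPM or more, every called member of the lists, genes fixed by name, the 2 on each side of the threshold and the 5 strongest changes of the IRF2 difference. Genes beyond this rule were named after their values were seen. The members, lists and rule were chosen with earlier results of these data known. Promoters are RefSeq sequences on GRCm38. Alternatives covered the pseudocount (0.1 and 5), low-value filters, scaling, a robust prior, the replicate block, the libraries fitted and leaving out 1 library. Python 3.11.15 with pandas 2.3.3, numpy 2.4.6 and matplotlib 3.10.9 made the tables and plots. A few genes covered by the rule are not reported here.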

Additional observations from a re-analysis of the deposited data

Results flagged for a closer look

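The IRF2 difference was tested between settings within the fit over all genes, and 14 changes were called. Between IFNα and media it changed by 4.28 for Rsad2, 2.73 for Cmpk2, 2.62 for Gm14446, 2.53 for Ifit1, 2.23 for I830012O16Rik, 2.15 for Ifit2, 2.04 for Ifit3 and 1.36 for Trim21 (log2). For Ifit2 and Trim21 the difference was negative in media and positive with IFNα. For Cmpk2 the level was 13.64 and 15.17 TPM in WT and 280.92 and 200.89 TPM in IRF2KO with IFNα. With a pseudocount of 0.1 these 8 changes were 0.77 to 2.40 and none was called. Between IFNγ and media the change was −4.64 for Gbp2, −2.62 for Gbp3, −1.79 for Gbp7 and 2.40 for Rsad2, the last from 11.65 and 7.64 TPM in IRF2KO and 0.09 and 0.04 TPM in WT with IFNγ. The change of Rsad2 was not called with a pseudocount of 0.1 (2.64, adjusted p = 1), and those of Gbp2 and Rsad2 were not called with the compared groups alone (0.29 and 0.177). On the IRF1KO background against the WT background the change was −1.57 for Psmb8 and −1.27 for Irgm1. The median over all genes of this last contrast was 0.11, and 0.00 with median-of-ratios scaling. Libraries of media serve in each of the 3 contrasts, so the contrasts are not independent of each other.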

How the results depend on the processing

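The 99 calls in media became 65 with a mean of at least 5 TPM (31 higher and 34 lower), 213 with the replicate block, 4 with the compared groups alone, 42 with the 4 media groups alone, 58 with at least 2-fold and 40 to 57 without 1 library. The 115 calls with IFNα became 254 with the block, 10 alone and 54 to 95 without 1 library. The 95 with IFNγ became 39 with the 5 TPM filter, 259 with the block, 0 alone and 46 to 58 without 1 library. The 79 of DKO against IRF1KO became 52, 201, 14 and 38 to 52 in that order. Changes of the IRF2 difference with IFNα (8) became 0 and 15 with pseudocounts of 0.1 and 5, 14 without a filter, 1 alone and 4 to 9 without 1 library. Those with IFNγ (4) became 7 with a pseudocount of 5, 7 with the block and 2 to 5 without 1 library, and those with IRF1 (2) became 1 with a pseudocount of 5, 4 without a filter, 4 with median-of-ratios scaling, 0 alone and 1 to 2 without 1 library. IRF1KO responses became 34 of 97 (IFNα) and 13 of 137 (IFNγ) alone, and the latter 209 with the block. Without 1 library they were 73 to 90 and 64 to 109. The 31 called genes at least 2-fold apart at 0 h became 19 with a pseudocount of 5. Motif shares of 37.0% and 20.8% became 18.5% and 8.33% with the longer motif, and the latter 6.25% upstream alone. Fewer libraries or genes entered some of these fits, and otherwise the cause was not tested.

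Reversed signs were all of differences near 0 that were not called. With median-of-ratios scaling H2-D1 had 0.013, Irf1 0.018, Psmb10 0.045 and Tap1 0.0041, and with quantile normalisation Irf1 0.0013 and Psmb10 0.0010. Without 1 library Irf1 ranged from −0.24 to 0.14, Nlrc5 from −0.34 to 0.093, Irf8 from −0.23 to 0.0017 and Psmb10 from −0.39 to 0.34. The depth of the libraries is unknown, 24 lower genes had a mean under 1 TPM in IRF2KO and 12 higher genes under 5 TPM in WT, and with 2 libraries a side the tests lean on the spread shared by 12 groups.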

Other observations

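Some genes outside the called set had large differences whose spread followed the replicate number, and they are named here after their values were seen. Irg1, which encodes the enzyme that makes itaconate, had 9.94 and 4.26 TPM in WT and 50.11 and 21.33 TPM in IRF2KO, a difference of 2.15 ± 0.73 (log2, SE, adjusted p = 0.417, and 2.2e-06 with the replicate block, limma). Replicate 1 was the higher library in both groups. Scimp, an adaptor at the plasma membrane of antigen-presenting cells, had 27.36 and 12.74 TPM in WT and 97.87 and 40.21 TPM in IRF2KO (1.69 ± 0.57, adjusted p = 0.415, and 2.93e-05 with the block). Tnfsf13b, which encodes the B cell survival factor BAFF, had 7.31 and 5.34 TPM in WT and 26.45 and 12.89 TPM in IRF2KO (1.43 ± 0.32, adjusted p = 0.0536, and 0.00669 with the block). Arg1, the cytosolic arginase, had 11.97 and 66.91 TPM in WT and 1.98 and 8.17 TPM in IRF2KO, with both IRF2KO libraries below both WT libraries (−2.51 ± 1.33, adjusted p = 0.731, and 0.00208 with the block). Agt, which encodes angiotensinogen, had 12.92 and 5.01 TPM in WT and 1.24 and 0.99 TPM in IRF2KO (−2.12 ± 0.48, adjusted p = 0.0559, and 6.38e-05 with the block). In the single libraries at 0 h Irg1 had 1.03 TPM in WT and 5.06 TPM in IRF2KO, Scimp 10.23 and 42.73 TPM, Tnfsf13b 8.35 and 27.89 TPM, and Arg1 18.23 and 1.75 TPM. The genes called lower only with the block were mixed at 0 h. Agt had 2.48 TPM in WT and 0.59 TPM in IRF2KO, and Gstt1 4.17 and 1.1 TPM. Vdr and Kazald1 were nearly level. Vdr had 4.59 TPM in WT and 4.51 TPM in IRF2KO there, and Kazald1 19.14 and 17.86 TPM.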
